A study of Mus musculus with 15 samples.

Results

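The effect of oral nicotinamide riboside (NR) on old blood stem cells was described from 10 of the 15 libraries in the series, the 5 of NR-treated aged mice and the 5 of untreated aged mice, chosen by their labels. The mice were described as female C57BL/6. The aged animals were 20 to 24 months old, and the treated ones drank water with 3 mg/ml NR for 2 months. The remaining 5 libraries came from young mice of 6 to 12 weeks. They serve as a reference level and were part of the fit, where they enter the estimate of the spread. Each library was made from 20000 to 25000 hematopoietic stem cells (HSC) sorted from bone marrow of 1 mouse as lineage-negative, Sca-1+, cKit+, CD150+ and CD48- cells, with B220, Mac-1, Gr-1 and Ter119 as the lineage antibodies.

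NR is a form of vitamin B3. Cells phosphorylate it by NR kinases and turn it into nicotinamide adenine dinucleotide (NAD), the coenzyme that carries electrons in glycolysis, the citrate cycle and respiration. NAD is also consumed by sirtuins, PARP enzymes and the ectoenzyme CD38. HSC are rare, mostly quiescent cells of the bone marrow from which all blood lineages descend. With age their number grows, their output shifts towards myeloid cells and their capacity to rebuild blood declines.

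Values are CPM, counts scaled to a common library size by the TMM method. Each set of 5 values runs from replicate 1 to 5. Fold changes are log2 values of NR-treated over untreated aged HSC. They were tested in edgeR by quasi-likelihood, and p-values were adjusted over 16154 genes after Benjamini and Hochberg. A gene that passed at 0.05 is said to have risen or fallen. Total counts ran from 764119 (untreated library 2) to 13318989 (untreated library 3) in the untreated group and from 2486399 to 3595384 in the NR group, a difference that did not pass an exact permutation test (two-sided, p = 0.0794, n = 5 each, smallest possible p 0.00794). Without untreated library 2 the untreated totals were all higher than the NR totals and the difference passed (exact permutation p = 0.00794, two-sided). In 2 of the 5 young libraries Y-linked transcripts reached 104 and 108 CPM against 0.757 to 3.16 CPM in the other 13, which goes against the label of female mice. The young libraries shared the dispersion estimate with the aged ones, and a fit of only the 10 aged libraries called 1466 genes, of which 1201 were also called in the fit of all 15.

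The sorted population carried the transcripts of HSC in both aged groups. Kit, the stem cell factor receptor of the gate, measured 347, 323, 346, 284 and 313 CPM in untreated aged HSC and 295, 394, 427, 424 and 385 CPM in NR-treated aged HSC. Ly6a (Sca-1) ranged over 245 to 416 and 205 to 345 CPM without and with NR. Of the genes that mark long-term HSC, Procr lay at 138 to 198 and 92.6 to 191 CPM, Mecom at 197 to 279 and 201 to 297 CPM and Hlf at 310.1 to 391 and 305 to 408 CPM. None of these 5 passed the test. Flt3, a marker of multipotent progenitors that HSC lack, was low at 1.3 to 4.8 and 2.82 to 7.78 CPM. Slamf1, which encodes the gating antigen CD150, fell from 65.5, 71.4, 88.2, 72 and 85.4 CPM to 53.1, 60.5, 54.4, 44.2 and 56.4 CPM, with no overlap (log2 fold change -0.51 ± 0.14 (SE), edgeR adjusted p = 0.0288). That call was lost without untreated library 3 (adjusted p = 0.0993), untreated library 5 (0.0794), NR library 3 (0.0615) or NR library 4 (0.0813). Cd48, the antigen selected against, fell further, from 13.3, 7.78, 27.3, 40.2 and 32.5 CPM to 4.8, 1.19, 3.89, 2.19 and 5.45 CPM (log2 fold change -2.83 ± 0.56 (SE), edgeR adjusted p = 0.00776).

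Between NR-treated and untreated aged HSC 1303 of 16154 genes differed, 8.07% of those tested. Of these, 627 rose (3.88%) and 676 fell (4.18%). The ranges of the groups did not overlap for 336 of the genes that rose and 494 of those that fell, and 8.6% of all genes tested had groups that did not overlap. Directions were unlike in kind: 296 of the 627 that rose (47.2%) were predicted genes, clones or pseudogenes, against 35 of the 676 that fell (5.18%). Of all 16154 genes tested 3934 (24.4%) were of this kind. Most changes among fallen genes were small, with 440 under 1 log2 unit, 125 between 1 and 3, and 111 of 3 or more. Among the genes that rose 279 moved by less than 1 log2 unit, 331 by 1 to 3 (270 of them predicted) and 17 by 3 or more (14 of them predicted). The first principal component over 500 variable genes of the 10 libraries held 60.1% of their variance, with untreated HSC at -24.6 to -9.79 and NR-treated HSC at 8.02 to 24.4.

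How many genes were called depended on single libraries. Leaving out 1 library at a time left 422 calls without untreated library 3, 534 without NR library 4, 538 without NR library 3 and 607 without untreated library 5. Scaling by library totals in place of TMM moved the median log2 fold change of all genes from 0.02 to 0.16 and the share of calls that were higher from 48.1% to 78.4%, so directions of gene lists below are read against that shift. Counts of list members called are read beside all genes, of which 8.07% were called, 3.88% higher and 4.18% lower. For single genes, the text below mostly gives the losses on leaving out 1 library. Of 94 named genes that were called, 28 were lost after thinning all libraries to the smallest total. Without the shallowest and the deepest untreated library 44 were lost, and 9 under library totals.

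**Figure D1:**
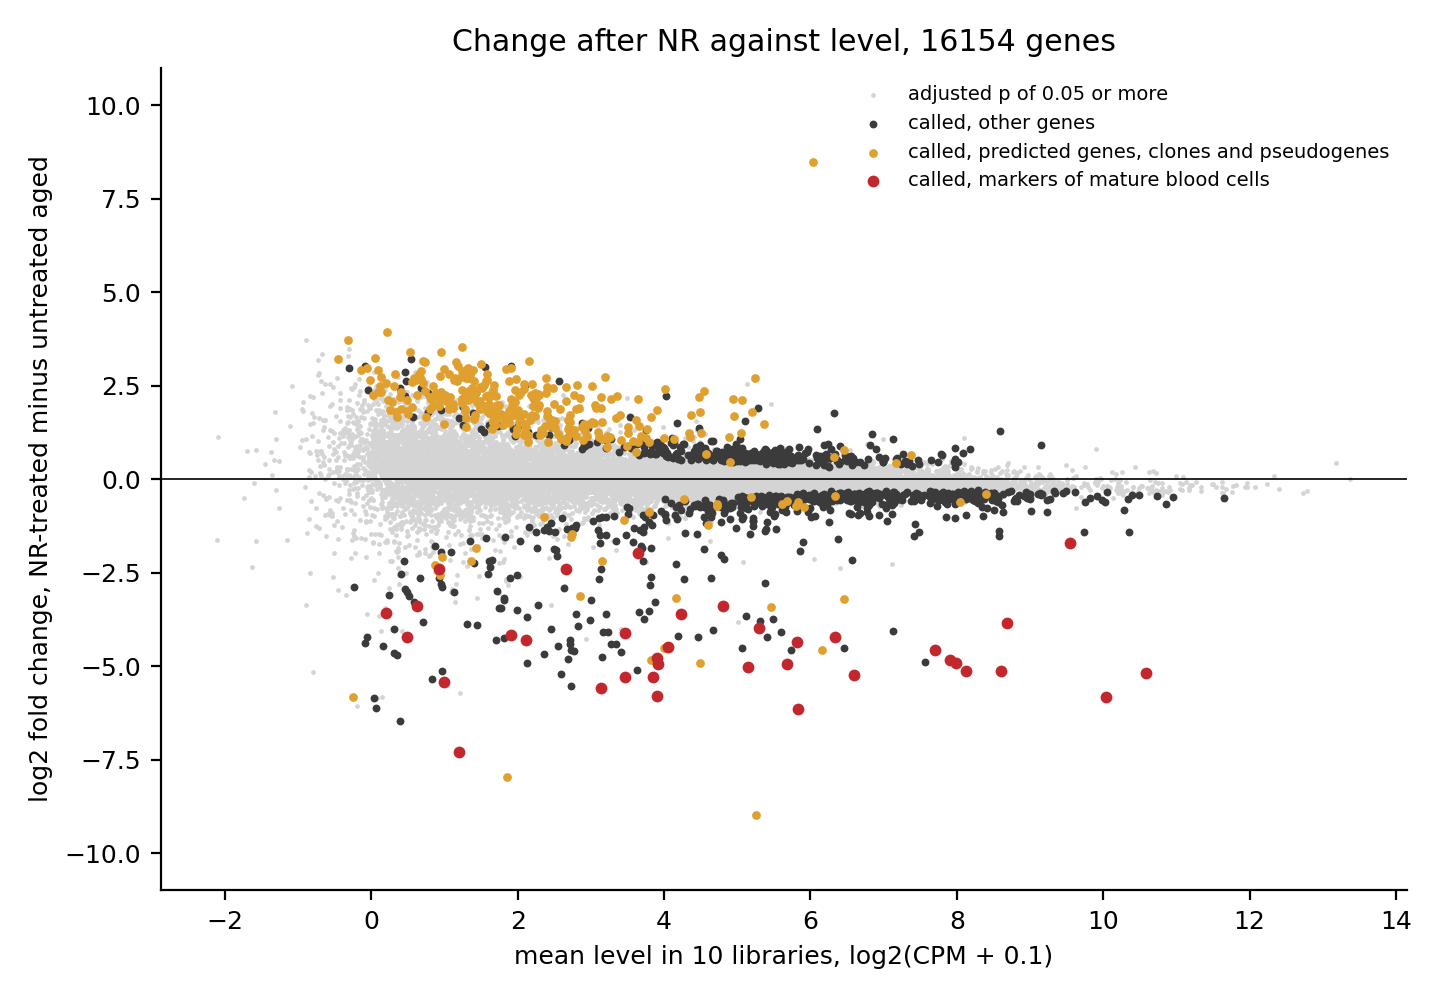
Log2 fold change after NR (vertical axis) against the mean level over the 10 aged libraries on a log2 scale (horizontal axis), 1 point per gene for 16154 genes. The 627 genes that rose include 296 predicted genes, mostly at low levels (orange), and the called markers of mature blood cells (red) all lie below 0.

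Many of the steepest falls were in genes of mature blood cells, and 32 of the 111 genes that fell by 3 or more log2 units were markers of other cell types. Among 74 measured markers of 7 other cell types 36 fell and none rose. Together they took 0.99% to 1.34% of all counts in untreated aged HSC and 0.167% to 0.288% after NR, with no overlap. Young HSC spanned 0.232% to 1.47%. Because each library pools RNA of all sorted cells, fewer cells of a type and less of its RNA per cell cannot be told apart.

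Erythrocyte markers moved as a block. All 8 measured members fell, with a median log2 fold change of -4.52 against 0.02 over all genes, and their share of counts fell from 0.638%, 0.656%, 0.369%, 0.304% and 0.473% in the untreated libraries to 0.00849%, 0.0106%, 0.00824%, 0.00704% and 0.0571% after NR. Hbb-bs, an adult beta globin, went from 3726, 3875, 2395, 1868 and 3152 CPM to 21.8, 50.1, 28, 21.2 and 288 CPM (log2 fold change -5.18 ± 0.81 (SE), edgeR adjusted p = 0.00167). The alpha globin Hba-a1 fell from 422 to 1058 CPM without NR to 4.02 to 76.5 CPM with it (log2 fold change -5.13 ± 0.78 (SE), edgeR adjusted p = 0.00123). Hbb-bt fell from 569.6 to 924 CPM without NR to 27.4 to 120.1 CPM with it (log2 fold change -3.85 ± 0.47 (SE), edgeR adjusted p = 0.000159). NR library 5 was the highest of its group for all 3 globins, at 288, 76.5 and 120 CPM, and still below every untreated library. The globin genes are close paralogs, so reads may be split between them. Of the broader erythroid list, which also holds enzymes of heme synthesis and the factor Klf1, 16 of 25 members fell and none rose (median -2.41). It called 11 without untreated library 3.

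B lineage and plasma cell markers followed, with 13 of 18 measured members lower, none higher and a median of -4.36. They called 7 without untreated library 3, and the same number without the shallowest and the deepest untreated library. Igkc, the constant region of the kappa light chain, measured 1641, 1937, 3265, 3153 and 386 CPM in untreated aged HSC and 70.6, 42, 13.6, 17.5 and 37.8 CPM in NR-treated aged HSC. Even untreated library 5, the lowest of its group, was above the highest NR library (log2 fold change -5.82 ± 0.70 (SE), edgeR adjusted p = 0.000159). Ighm, the heavy chain of IgM, fell from 467, 405, 756, 988 and 99.8 CPM to 25.1, 14, 4.28, 5.11 and 26.1 CPM (log2 fold change -5.14 ± 0.74 (SE), edgeR adjusted p = 0.00102). Igha, the heavy chain of IgA, fell from 15.1 to 53.7 CPM without NR to 0.282 to 1.63 CPM with it (log2 fold change -5.28 ± 0.55 (SE), edgeR adjusted p = 3.41e-05). Iglc1 ranged over 3.82 to 242 CPM without NR and 0.282 to 3 CPM with it (log2 fold change -6.15 ± 0.93 (SE), edgeR adjusted p = 0.00123). The call of Iglc1 was lost in limma-voom (adjusted p = 0.146). Ms4a1, which marks B cells, was among the 13. Immunoglobulin constant genes resemble each other closely, and their counts carry the same doubt as the globins.

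Granulocyte markers fell in 9 of 14 members, with a median of -4.57, or -4.33 with the 1 member at 0 in all NR libraries set to its bound of 3 counts. The count was 3 without NR library 3 and 4 without NR library 4. S100a8, a subunit of calprotectin that neutrophils hold in large amount, measured 423, 628, 512, 263 and 494 CPM in untreated aged HSC and 7.63, 17.6, 5.44, 3.65 and 43.8 CPM in NR-treated aged HSC. All untreated libraries exceeded the highest NR value by several fold (log2 fold change -4.83 ± 1.11 (SE), edgeR adjusted p = 0.0146). Of granule proteases counted with myeloid commitment, Elane (neutrophil elastase) went from 113, 110.3, 298, 195 and 131 CPM to 1.98, 6.86, 2.33, 2.92 and 21.2 CPM (log2 fold change -4.53 ± 0.996 (SE), edgeR adjusted p = 0.0117). Ctsg, cathepsin G of granules, fell from 58.4 to 135 CPM without NR to 1.46 to 14.4 CPM with it (log2 fold change -4.10 ± 0.80 (SE), edgeR adjusted p = 0.0068). NR library 5 was again the highest treated library for both, at 21.2 and 14.4 CPM. No granulocyte marker was called without the shallowest and the deepest untreated library.

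Monocyte and macrophage markers fell in 5 of 15 members (median -1.30), but the count was 1 without NR library 3 or NR library 4, 2 without untreated library 3 and 3 without untreated library 4 or NR library 2. Ly6c2, the surface antigen of inflammatory monocytes, fell from 184, 202, 585, 628 and 397 CPM to 6.5, 12.5, 6.22, 1.46 and 54.2 CPM (log2 fold change -4.58 ± 1.07 (SE), edgeR adjusted p = 0.0156). Lyz2, lysozyme, stayed abundant, from 658 to 1556 CPM without NR to 285 to 467 CPM with it (log2 fold change -1.70 ± 0.41 (SE), edgeR adjusted p = 0.0191). Lyz2 was lost without untreated library 3 (adjusted p = 0.05004), NR library 3 (0.0549) or NR library 4 (0.0542). Of 10 T and NK cell markers 1 fell, Ccl5, while 8 had a negative estimate (median -1.69). The count was 0 without untreated library 4 or NR library 4 and 2 without NR library 5. Their share of counts overlapped, at 0.0098% to 0.0148% and 0.00594% to 0.0168%. None of 5 mast cell and basophil markers and none of 4 stromal and endothelial markers was called by edgeR, with 2 and 0 lower and none higher at an unadjusted p under 0.05, and DESeq2 and limma-voom also called none of them.

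**Figure D2:**
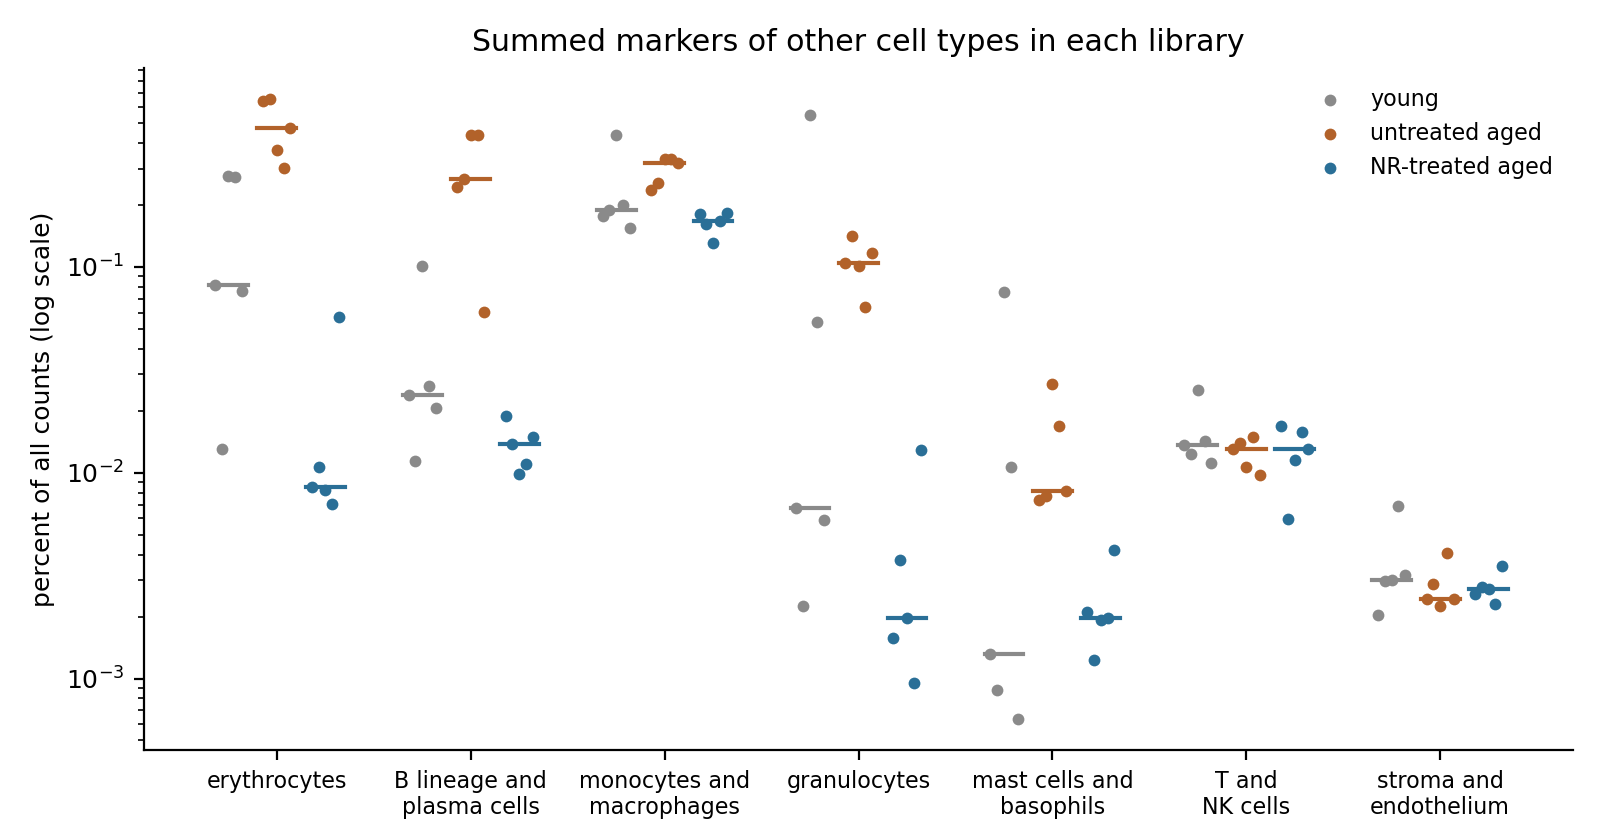
Percent of all counts on the summed markers of 7 other cell types (log axis), 1 point per library, with bars at the group median. Untreated aged libraries lie above NR-treated ones without overlap for erythrocytes, B lineage and plasma cells, monocytes and macrophages, granulocytes, and mast cells and basophils, and the groups overlap for T and NK cells and for stroma and endothelium.

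Genes of commitment and of phagocytes fell with them. Of 18 measured genes of myeloid commitment 10 fell and none rose (median -0.997). The count was 6 without untreated library 3 or NR library 3. Of 24 phagocytic receptors and effectors 9 fell and 1 rose (median -1.15). The number called in either direction was 5 without NR library 4 and 6 without untreated library 3 or NR library 3. Fcgr3, an Fc receptor for IgG, dropped from 17.2, 14.3, 32.4, 32.4 and 23.7 CPM to 0, 1.19, 0, 0.365 and 1.63 CPM (log2 fold change -5.12 ± 0.98 (SE), edgeR adjusted p = 0.0065). Tyrobp, the adaptor that couples myeloid receptors to kinases, went from 36.3 to 131 CPM without NR to 1.41 to 14.4 CPM with it (log2 fold change -3.75 ± 0.84 (SE), edgeR adjusted p = 0.0124). Of 16 genes of lymphoid priming 2 fell and 1 rose. The one that rose was Tcf12, a transcription factor, from 29.8 to 76.4 CPM without NR to 68.6 to 113 CPM with it (log2 fold change 0.66 ± 0.18 (SE), edgeR adjusted p = 0.0315). Tcf12 was lost without untreated library 3 (adjusted p = 0.0776), untreated library 4 (0.061), untreated library 5 (0.0545), NR library 2 (0.0514), NR library 3 (0.0881) or NR library 4 (0.0829). The lymphocyte surface protein Cd52 fell from 35 to 108 CPM without NR to 4.77 to 19.3 CPM with it (log2 fold change -2.77 ± 0.57 (SE), edgeR adjusted p = 0.00866). Cd52 is also expressed on mature leukocytes, and the marker share of mature cells moved with it, a part that was not tested.

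Immediate early genes encode transcription factors and feedback regulators that are transcribed within minutes of a stimulus, through cyclic AMP response elements (CRE) bound by CREB and ATF proteins and through serum response elements (CArG boxes) bound by SRF. After NR 11 of the 26 measured genes of this class fell and none rose, with a median of -0.74. The promoters of 4 genes that fell are shown because they hold such elements. Capitals mark matches of a search on both strands for TGACG (the CRE core), TGACGTCA (the full CRE, which contains the core) and the CArG box. They are the 250 bases before the annotated start on GRCm38.p6, from RefSeq, printed 5′ to 3′ on the strand of the gene.

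Dusp1 (chr17:26508473-26508722, minus strand): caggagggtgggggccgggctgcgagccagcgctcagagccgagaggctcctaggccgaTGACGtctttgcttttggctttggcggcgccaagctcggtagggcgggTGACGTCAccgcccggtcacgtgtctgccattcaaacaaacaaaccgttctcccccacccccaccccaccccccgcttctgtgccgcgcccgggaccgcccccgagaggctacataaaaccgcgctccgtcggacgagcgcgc
Btg2 (chr1:134079156-134079405, minus strand): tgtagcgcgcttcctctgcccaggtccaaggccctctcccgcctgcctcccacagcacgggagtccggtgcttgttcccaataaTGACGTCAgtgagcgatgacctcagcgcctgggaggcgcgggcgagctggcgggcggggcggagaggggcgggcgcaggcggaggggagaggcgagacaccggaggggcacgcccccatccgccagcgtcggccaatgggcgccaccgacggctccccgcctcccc
Fos (chr12:85473640-85473889, plus strand): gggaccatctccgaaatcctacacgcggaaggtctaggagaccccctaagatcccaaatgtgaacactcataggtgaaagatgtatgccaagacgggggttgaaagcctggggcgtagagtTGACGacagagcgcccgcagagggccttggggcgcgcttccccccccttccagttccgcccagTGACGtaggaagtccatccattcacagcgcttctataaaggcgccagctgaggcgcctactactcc
Zfp36 (chr7:28379229-28379478, minus strand): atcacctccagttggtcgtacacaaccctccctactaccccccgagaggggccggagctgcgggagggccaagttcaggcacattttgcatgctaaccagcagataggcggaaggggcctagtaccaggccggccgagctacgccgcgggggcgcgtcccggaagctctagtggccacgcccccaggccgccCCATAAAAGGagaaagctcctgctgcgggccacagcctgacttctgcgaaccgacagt

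The CRE core was found in 7 of the 10 fallen genes that had a promoter in the table, in 4 of 9 others of the list and in 17.8% of 32851 promoters. Dusp1 and Fos each held it at 2 places. Only Dusp1 and Btg2 of these 19 promoters held the full CRE, which 1.55% of all promoters contain, and of the 10 Zfp36 was the 1 with a CArG box, which 1.47% contain. These matches describe letters in a window and are not evidence of binding.

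Klf4, a zinc finger factor of quiescence and monocyte development (chr4:55527143-55532466, minus strand), measured 56.2, 54.5, 126, 94.8 and 124 CPM in untreated aged HSC and 20.3, 27.4, 20.6, 26.7 and 26.4 CPM in NR-treated aged HSC. Its NR libraries lay within a narrow band below all untreated ones, at 91.1 ± 34.9 and 24.3 ± 3.5 CPM (mean ± SD, n = 5 each) (log2 fold change -1.93 ± 0.24 (SE), edgeR adjusted p = 0.000159). Dusp1, a phosphatase that switches off MAP kinases, measured 298, 327, 1079, 483 and 625 CPM in untreated aged HSC and 169, 276, 202, 197 and 148 CPM in NR-treated aged HSC. The 2 groups did not overlap, at 562 ± 317 and 199 ± 48.5 CPM (mean ± SD, n = 5 each) (log2 fold change -1.51 ± 0.28 (SE), edgeR adjusted p = 0.00526). Btg2, an antiproliferative partner of mRNA deadenylases, measured 137, 136, 369, 262 and 391 CPM without NR and 92.4, 120.1, 82.1, 74.1 and 119 CPM with it (log2 fold change -1.42 ± 0.27 (SE), edgeR adjusted p = 0.00608). Zfp36 (tristetraprolin), which speeds decay of AU-rich mRNAs, went from 459, 274, 924, 506 and 584 CPM to 145, 328, 179, 211 and 195 CPM (log2 fold change -1.39 ± 0.27 (SE), edgeR adjusted p = 0.00661), and here NR library 2 exceeded untreated library 2.

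The AP-1 subunits Fos and Jun fell as well. Fos measured 777, 563, 2084, 1223 and 1576 CPM in untreated aged HSC and 229.9, 837, 378, 475 and 409 CPM in NR-treated aged HSC. NR library 2 was well above the other 4 treated libraries and above 2 untreated ones (log2 fold change -1.42 ± 0.30 (SE), edgeR adjusted p = 0.0103). Jun measured 1427, 1692, 2937, 1665 and 1753 CPM without NR and 762, 784, 712, 586 and 700.4 CPM with it and did not overlap, with untreated library 3 the highest (log2 fold change -1.42 ± 0.31 (SE), edgeR adjusted p = 0.0114). Klf2, a quiescence factor of lymphocytes and endothelium, fell from 114 to 249 CPM without NR to 64.8 to 118 CPM with it (log2 fold change -0.95 ± 0.19 (SE), edgeR adjusted p = 0.00773). Ier2 fell from 231 to 449 CPM without NR to 140.3 to 234 CPM with it (log2 fold change -1.05 ± 0.22 (SE), edgeR adjusted p = 0.00866). The stress factor Atf3 was by far the highest in untreated library 3, with 5.49, 2.59, 286, 7.11 and 16.7 CPM in the untreated and 2.26, 5.96, 2.33, 2.56 and 1.63 CPM in the NR libraries (log2 fold change -4.51 ± 1.10 (SE), edgeR adjusted p = 0.0188). Its call was lost without untreated library 3 (adjusted p = 0.228), NR library 3 (0.0518) or NR library 4 (0.0524), and its log2 fold change without untreated library 3 was -1.52.

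For 2 further members the call was lost in most fits without 1 library. Klf6, at 332 to 937 and 244 to 493 CPM, fell (log2 fold change -0.84 ± 0.24 (SE), edgeR adjusted p = 0.0364). Klf6 was lost without untreated library 3 (adjusted p = 0.118), untreated library 4 (0.0514), untreated library 5 (0.107), NR library 1 (0.0708), NR library 3 (0.0754), NR library 4 (0.0599) or NR library 5 (0.0768). Junb, at 586 to 1235 and 288 to 669.6 CPM, fell (log2 fold change -0.88 ± 0.26 (SE), edgeR adjusted p = 0.044). Junb was lost without untreated library 3 (adjusted p = 0.159), untreated library 4 (0.0648), untreated library 5 (0.0725), NR library 1 (0.093), NR library 3 (0.1), NR library 4 (0.0917) or NR library 5 (0.0815). Fosb (-0.70, edgeR adjusted p = 0.0562) and Egr1 (-0.77, edgeR adjusted p = 0.0695) did not pass, and Nr4a1 lay at 14.3 to 94.8 and 41.5 to 126 CPM (-0.06, edgeR adjusted p = 0.937). Without the shallowest and the deepest untreated library 7 of the 26 were called.

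Levels after NR were below those of young HSC for several of these genes, given as a description. Dusp1 ranged over 323 to 610.4 CPM in young HSC, Zfp36 over 370.0 to 798, Fos over 849 to 1155 and Ier2 over 246 to 504 CPM, and in each all 5 NR libraries lay under all 5 young ones. For Jun 4 of 5 young libraries lay between 498 and 660 CPM and young library 2 at 2236 CPM. Among 37 measured genes of the MAP kinase cascade, which relays stimuli to this class, 3 rose and none fell (median 0.28). Over all genes 3.88% rose. Mapk14 (p38 alpha) lay at 51.9 to 80.1 CPM without and 91.4 to 107 CPM with NR (log2 fold change 0.47 ± 0.12 (SE), edgeR adjusted p = 0.0241). That call was lost without untreated library 3 (adjusted p = 0.0617), untreated library 4 (0.05002), NR library 4 (0.0501) or NR library 5 (0.0515). The list called 0 without untreated library 3 or NR library 4, 1 without untreated library 4, untreated library 5, NR library 3 or NR library 5 and 5 without untreated library 1.

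**Figure D3:**
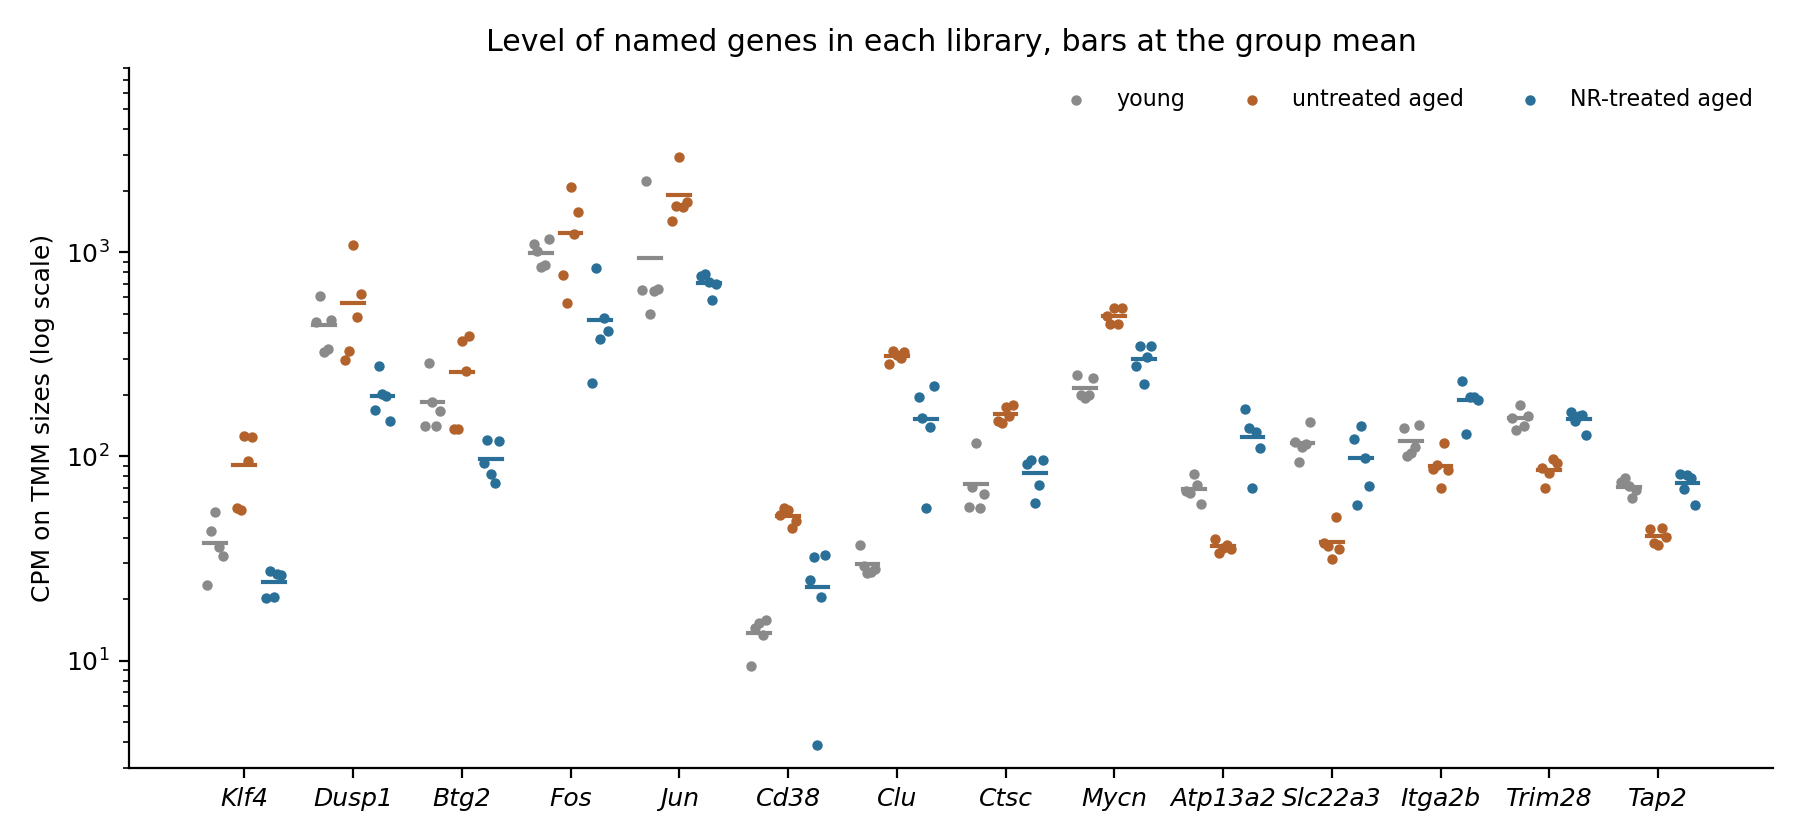
Level of 14 genes in CPM (log axis) in young (grey), untreated aged (brown) and NR-treated aged (blue) HSC, 1 point per library with bars at the group mean. Klf4, Dusp1, Btg2, Jun, Cd38, Clu, Ctsc and Mycn lie lower and Atp13a2, Slc22a3, Itga2b, Trim28 and Tap2 higher after NR without overlap, while 1 NR library for Fos, at 837 CPM, reaches into the untreated range.

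Chaperones and the unfolded protein response were examined next. The heat shock protein gene Hspa1a and its neighbour Hspa1b encode the same inducible HSP70 on chromosome 17, and Hsp90b1 and Canx are chaperones of the endoplasmic reticulum (ER). Their promoters are shown since the first pair is almost identical, with 247 of 250 positions the same (98.8%), and the second pair holds the ER stress element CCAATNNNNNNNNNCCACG, which 37 of 32851 promoters (0.113%) contain. Capitals mark the heat shock core GAANNTTC in the first pair, present in 6.69% of promoters, and the ER stress element in the second, searched on both strands (RefSeq, GRCm38.p6, 250 bases before the start).

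Hspa1a (chr17:34972157-34972406, minus strand): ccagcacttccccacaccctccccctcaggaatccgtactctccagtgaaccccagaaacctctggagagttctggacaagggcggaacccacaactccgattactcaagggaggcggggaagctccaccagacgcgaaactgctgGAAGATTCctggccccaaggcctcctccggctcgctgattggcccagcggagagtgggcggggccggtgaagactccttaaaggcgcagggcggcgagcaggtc
Hspa1b (chr17:34959239-34959488, minus strand): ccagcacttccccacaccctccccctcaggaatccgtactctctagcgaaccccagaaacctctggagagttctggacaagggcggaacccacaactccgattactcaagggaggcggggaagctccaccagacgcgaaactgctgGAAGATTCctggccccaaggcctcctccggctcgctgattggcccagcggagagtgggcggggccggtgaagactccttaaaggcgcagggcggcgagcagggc
Hsp90b1 (chr10:86705445-86705694, minus strand): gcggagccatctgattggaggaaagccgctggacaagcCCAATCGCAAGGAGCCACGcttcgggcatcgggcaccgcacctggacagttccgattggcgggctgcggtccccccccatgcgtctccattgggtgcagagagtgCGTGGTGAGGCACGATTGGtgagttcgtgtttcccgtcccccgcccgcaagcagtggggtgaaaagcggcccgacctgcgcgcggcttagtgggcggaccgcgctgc
Canx (chr11:50325674-50325923, minus strand): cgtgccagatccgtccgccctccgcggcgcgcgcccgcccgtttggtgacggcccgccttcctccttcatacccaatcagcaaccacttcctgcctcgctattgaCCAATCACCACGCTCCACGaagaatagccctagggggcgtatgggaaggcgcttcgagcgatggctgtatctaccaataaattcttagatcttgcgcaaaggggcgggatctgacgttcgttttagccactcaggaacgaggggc

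Hspa1a fell steeply from a low level, with 2.46, 2.59, 8.71, 11.2 and 6.03 CPM in untreated aged HSC and 1.41, 0.298, 0, 0.365 and 1.09 CPM in NR-treated aged HSC. Every NR library was below every untreated one (log2 fold change -3.22 ± 0.64 (SE), edgeR adjusted p = 0.00755). The call of Hspa1a was lost after thinning (adjusted p = 0.0604). Hspa1b measured 3.32, 6.49, 11.3, 9.24 and 10.2 CPM without NR and 6.5, 4.47, 1.56, 0.365 and 1.09 CPM with it, overlapped and did not pass (log2 fold change -1.52 ± 0.60 (SE), edgeR adjusted p = 0.118). Since the 2 genes are near-identical, how their reads were divided is uncertain. Of 28 measured cytosolic chaperones 3 fell and none rose (median -0.11), the others being the co-chaperone Dnajb6, from 72.2 to 101 CPM without NR to 51 to 57.5 CPM with it (log2 fold change -0.60 ± 0.13 (SE), edgeR adjusted p = 0.0103), and Cct8 of the TRiC folding complex. Over all genes 4.18% fell. Scaling by library totals put the list's median at 0.02 and that of all genes at 0.16.

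ER stress genes fell in 4 of 28 cases, none rose and the median was -0.28. The ER stress element was found in the promoters of 2 of the 4, and in 6 of 21 others of the list with a promoter. Hsp90b1, the ER form of HSP90, measured 678, 647, 609, 796 and 946 CPM in untreated aged HSC and 579, 436, 455, 491 and 569 CPM in NR-treated aged HSC, with no overlap (log2 fold change -0.54 ± 0.12 (SE), edgeR adjusted p = 0.0133). Ppp1r15a (GADD34), which restores translation after stress, fell from 426, 380.1, 627, 442 and 448 CPM to 232, 333, 272, 233 and 250.2 CPM (log2 fold change -0.82 ± 0.18 (SE), edgeR adjusted p = 0.0112). Calnexin (Canx) fell from 1013 to 1224 CPM without NR to 698 to 1012 CPM with it (log2 fold change -0.46 ± 0.12 (SE), edgeR adjusted p = 0.0216). Canx was lost without untreated library 3 (adjusted p = 0.0617), untreated library 5 (0.0594), NR library 3 (0.0663) or NR library 4 (0.0665). Xbp1, a factor of the unfolded protein response that plasma cells express strongly, went from 119.8 to 228 CPM without NR to 89 to 113 CPM with it (log2 fold change -0.76 ± 0.19 (SE), edgeR adjusted p = 0.0208). Xbp1 was lost without untreated library 4 (adjusted p = 0.053), untreated library 5 (0.0683) or NR library 4 (0.0542). The list called 2 without untreated library 5 or NR library 4.

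NAD metabolism is the pathway that NR feeds. Of 20 measured genes of NAD synthesis and salvage 1 fell and none rose, with a median of 0.03, beside 4.18% of all genes that fell. The count was 0 without untreated library 3 and 2 without untreated library 2 or NR library 1. Nmrk1, the kinase that phosphorylates NR, measured 9.39, 10.4, 12.3, 7.29 and 9.84 CPM without NR and 12.4, 13.1, 14.8, 11 and 14.2 CPM with it, and did not pass (log2 fold change 0.41 ± 0.18 (SE), edgeR adjusted p = 0.165). Nampt, the rate-limiting enzyme of nicotinamide salvage, lay at 57.1 to 66.9 and 45.2 to 69.8 CPM (log2 fold change -0.17 ± 0.12 (SE), edgeR adjusted p = 0.4). The gene that fell was Pnp2, a purine nucleoside phosphorylase, from 5.19 to 11.9 CPM without NR to 2.72 to 4.52 CPM with it (log2 fold change -1.35 ± 0.30 (SE), edgeR adjusted p = 0.0117). Pnp2 was lost without untreated library 3 (adjusted p = 0.0509), and its reads may be shared with a close copy.

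Enzymes that consume NAD gave 1 lower and 1 higher gene of 24 (median 0.08), near the 8.07% of all genes that were called. Cd38 (chr5:43868553-43912375, plus strand), which hydrolyses NAD, measured 51.4, 55.8, 54.8, 44.4 and 48.4 CPM in untreated aged HSC and 24.9, 32.2, 3.89, 20.5 and 32.9 CPM in NR-treated aged HSC. All treated libraries were under all untreated ones, and NR library 3 was far lower than the other 4 (log2 fold change -1.13 ± 0.29 (SE), edgeR adjusted p = 0.0247). Cd38 was lost without untreated library 3 (adjusted p = 0.0671) or NR library 4 (0.0629). Young HSC held 9.47 to 15.9 CPM. Sirt3, the mitochondrial NAD-dependent deacylase, measured 45.2, 33.7, 26, 38 and 36.6 CPM in untreated aged HSC and 42.7, 47.1, 61.8, 65 and 52 CPM in NR-treated aged HSC. Its groups overlapped by untreated library 1 (log2 fold change 0.57 ± 0.16 (SE), edgeR adjusted p = 0.034). Sirt3 was lost without untreated library 2 (adjusted p = 0.0533), untreated library 3 (0.101), untreated library 4 (0.0529), untreated library 5 (0.0703), NR library 3 (0.088) or NR library 4 (0.0948). Sirt1, the nuclear deacetylase, lay at 7.78 to 22.4 and 23.7 to 31.9 CPM, did not overlap and did not pass (log2 fold change 0.51 ± 0.21 (SE), edgeR adjusted p = 0.128). Parp1, the main consumer of NAD in DNA damage, lay at 131 to 161 and 122 to 181 CPM (log2 fold change 0.01 ± 0.11 (SE), edgeR adjusted p = 0.982).

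Most estimates for the respiratory chain were small and negative, and the counts of genes that fell lay near the 4.18% of all genes. For complex I of the respiratory chain all 36 measured subunits had a negative estimate, with a median of -0.22, and 2 fell, while 11 were lower at an unadjusted p under 0.05. Ndufc2 measured 234, 346, 283, 306 and 308 CPM without NR and 238, 188, 188, 197 and 238 CPM with it (log2 fold change -0.49 ± 0.12 (SE), edgeR adjusted p = 0.0188). Ndufc2 was lost without NR library 3 (adjusted p = 0.0551) or NR library 4 (0.0536). Of 46 genes of complexes II to V 3 fell and none rose (median -0.23). Cox7a2l, which stabilises respiratory supercomplexes, measured 460.2, 453, 523, 563 and 646 CPM in untreated aged HSC and 373, 395, 342, 349 and 396 CPM in NR-treated aged HSC. Its groups did not overlap (log2 fold change -0.51 ± 0.12 (SE), edgeR adjusted p = 0.0133). Under TMM, with predicted genes left out, the quintile of genes with the shortest transcripts had a median of -0.18 and the most abundant quintile -0.16. A part of transcript length or level in the estimates of the chain was not tested. Under library totals the median of complex I was -0.08 and that of complexes II to V -0.09, against 0.16 over all genes. In that scaling 25 of 36 and 31 of 46 estimates were negative, and no complex I gene was called. Complex I called 0 without NR library 3 or NR library 4 and 1 without untreated library 2, untreated library 3, untreated library 4, untreated library 5, NR library 2 or NR library 5, and complexes II to V called 1 without untreated library 3, NR library 2, NR library 3 or NR library 4, 5 without untreated library 1 and 6 without NR library 1. No mitochondrially encoded mRNA was among the genes analysed here.

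Pathways that feed the chain gave similar counts, beside 4.18% of all genes that fell. In the citrate cycle and pyruvate dehydrogenase 2 of 24 genes fell (median -0.19). Idh1, the cytosolic NADP-dependent isocitrate dehydrogenase, went from 50.3, 55.8, 81, 52.1 and 60.9 CPM to 28.5, 22.4, 31.5, 24.1 and 45.5 CPM (log2 fold change -0.99 ± 0.24 (SE), edgeR adjusted p = 0.0188). Idh1 was lost without untreated library 3 (adjusted p = 0.068) or NR library 4 (0.0553). Of 33 genes of fatty acid oxidation 2 fell, among them Acsl4, which activates long-chain fatty acids, from 124 to 205 CPM without NR to 95.7 to 124 CPM with it (log2 fold change -0.57 ± 0.13 (SE), edgeR adjusted p = 0.0151). Acsl4 was lost without untreated library 3 (adjusted p = 0.0612). The median of the 33, -0.07, became 0.08 under library totals, where that of all genes was 0.16. Hk2, the hexokinase that starts glycolysis, measured 141, 128, 164, 122 and 145 CPM without NR and 81.9, 118, 72.7, 132 and 82 CPM with it and did not pass (log2 fold change -0.53 ± 0.17 (SE), edgeR adjusted p = 0.0602). Of 29 glycolytic genes 1 fell, Ldhb (median 0.02), and the count was 0 without untreated library 3, untreated library 5, NR library 3 or NR library 5. Cholesterol synthesis had 3 lower genes of 22 (median -0.36), among them Insig1, a sensor of the pathway, from 74.3 to 169 CPM without NR to 49 to 87.3 CPM with it (log2 fold change -0.90 ± 0.22 (SE), edgeR adjusted p = 0.0188). Insig1 was lost without untreated library 3 (adjusted p = 0.0738) or NR library 4 (0.0543). Cholesterol synthesis called 0 without untreated library 3 or NR library 4, 1 without NR library 3 and 5 without NR library 5, and the citrate cycle 0 without untreated library 3 or NR library 4 and 1 without untreated library 4, untreated library 5, NR library 2 or NR library 3.

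Ribosomal protein genes had a median of -0.22 with 75 of 79 estimates negative. With predicted genes left out, the quintile of genes with the shortest transcripts had a median of -0.18 and the most abundant quintile -0.16. A part of transcript length or level in the estimates of this class was not tested. None passed in edgeR's test, 27 were lower and none higher at an unadjusted p under 0.05, and DESeq2 called 7 and limma-voom 4 of them lower. Scaling by library totals moved the median to -0.08, against 0.16 over all genes, and called 1 of them, higher. The mitochondrial ribosome showed 1 lower gene of 76 (median -0.18, or -0.04 under library totals), and the count was 0 without untreated library 1, untreated library 2, untreated library 3, untreated library 5, NR library 2, NR library 3 or NR library 4 and 2 without NR library 1. Among 39 mitochondrial carriers 2 fell and 1 rose (median -0.11, or 0.03 under library totals), near the 8.07% of all genes that were called. The count was 1 without untreated library 2, untreated library 3, untreated library 4, untreated library 5, NR library 3 or NR library 4. Slc25a37 (mitoferrin 1), which imports iron for heme synthesis, fell from 139, 129.7, 146, 144 and 102 CPM to 48, 59.3, 81.3, 88.8 and 67 CPM, and did not overlap (log2 fold change -0.95 ± 0.16 (SE), edgeR adjusted p = 0.00309). It is strongly expressed in erythroid cells, whose markers fell in the same libraries, a part that was not tested.

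Genes of mitochondrial quality control gave few calls, beside 8.07% of all genes called in either direction. The counts for positive regulators of mitophagy and for mitochondrial dynamics were near that share. In the core of autophagy 4 of 32 genes fell and none rose (median -0.17, or -0.03 under library totals against 0.16 over all genes). Fundc1, a mitophagy receptor of the outer membrane, measured 105, 117, 126, 102 and 119 CPM in untreated aged HSC and 75.7, 82.9, 88.3, 74.1 and 83.1 CPM in NR-treated aged HSC. The groups did not overlap (log2 fold change -0.49 ± 0.10 (SE), edgeR adjusted p = 0.0103). Bnip3l (NIX), another such receptor, fell from 112 to 128 CPM without NR to 71.2 to 97.2 CPM with it (log2 fold change -0.44 ± 0.10 (SE), edgeR adjusted p = 0.0137). Bnip3l was lost under library totals (adjusted p = 0.0638), after thinning (0.121) and without the shallowest and the deepest untreated library (0.0655). Map1lc3b (LC3B) of the autophagosome membrane fell from 383 to 514 CPM without NR to 292 to 334 CPM with it (log2 fold change -0.51 ± 0.12 (SE), edgeR adjusted p = 0.0133). Map1lc3b was lost without untreated library 3 (adjusted p = 0.0533). By contrast 11 of 13 positive regulators of mitophagy had a positive estimate (median 0.22) and 1 rose, the deacetylase Hdac6, from 7.78 to 12.1 CPM without NR to 11.3 to 21.9 CPM with it (log2 fold change 0.65 ± 0.20 (SE), edgeR adjusted p = 0.0496). Hdac6 was lost without untreated library 1 (adjusted p = 0.0849), untreated library 2 (0.0737), untreated library 3 (0.0597), untreated library 4 (0.087), untreated library 5 (0.112), NR library 1 (0.0819), NR library 3 (0.0822) or NR library 4 (0.148). Of 22 genes of mitochondrial dynamics and biogenesis the fusion GTPase Mfn1 rose, from 6.49 to 14.5 CPM without NR to 15.8 to 20.4 CPM with it (log2 fold change 0.69 ± 0.20 (SE), edgeR adjusted p = 0.043). The fission adaptor Fis1 fell, from 269.9 to 327 CPM without NR to 207 to 246 CPM with it (log2 fold change -0.39 ± 0.09 (SE), edgeR adjusted p = 0.0186). Mfn1 was lost without untreated library 2 (adjusted p = 0.0656), untreated library 3 (0.0747), untreated library 4 (0.0755), untreated library 5 (0.116), NR library 2 (0.056), NR library 3 (0.088), NR library 4 (0.0829) or NR library 5 (0.0851). Fis1 was lost without untreated library 3 (adjusted p = 0.063), untreated library 5 (0.0555) or NR library 3 (0.0542).

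Lysosomal genes fell in 10 of 56 cases and none rose, with a median of -0.12. Under library totals it became 0.02, against 0.16 over all genes. The count was 6 without untreated library 3, untreated library 5, NR library 3 or NR library 4, and 2 without the shallowest and the deepest untreated library. Ctsc (cathepsin C), which activates granule proteases, measured 149.6, 147, 174, 158 and 179 CPM in untreated aged HSC and 91.8, 96.6, 59.1, 72.3 and 95.8 CPM in NR-treated aged HSC. All treated values were under 100 and all untreated ones over 140 CPM (log2 fold change -0.96 ± 0.17 (SE), edgeR adjusted p = 0.00506). Ctsb (cathepsin B) fell from 284 to 375 CPM without NR to 156 to 213 CPM with it (log2 fold change -0.67 ± 0.14 (SE), edgeR adjusted p = 0.00866). Asah1 (acid ceramidase) fell from 98.3 to 130.0 CPM without NR to 65 to 89.6 CPM with it (log2 fold change -0.59 ± 0.12 (SE), edgeR adjusted p = 0.00776). Npc2, which exports cholesterol from lysosomes, fell from 248 to 305 CPM without NR to 183 to 207 CPM with it (log2 fold change -0.51 ± 0.11 (SE), edgeR adjusted p = 0.0112). These enzymes are abundant in myeloid cells. In young library 3, which held 1.47% of its counts on markers of mature cells, Ctsc was 117 CPM and Ctsb 262 CPM, the highest of the young group, against 55.9 to 70.7 and 155 to 203 CPM in the other 4. The part of mature cells in these falls was not tested.

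Antioxidant enzymes fell in 7 of 28 cases and none rose (median -0.27). They called 2 without untreated library 3, NR library 3 or NR library 4, 3 without untreated library 4 and 4 without untreated library 2, and 2 under library totals. Gpx1, a glutathione peroxidase among the abundant transcripts of HSC, measured 3177, 3577, 4090, 3708 and 4275 CPM in untreated aged HSC and 2950, 2403, 2789, 2386 and 2832 CPM in NR-treated aged HSC. The groups did not overlap (log2 fold change -0.50 ± 0.11 (SE), edgeR adjusted p = 0.0117). Glrx (glutaredoxin) fell from 38.6, 37.6, 49.4, 43.6 and 49.4 CPM to 29.9, 28.3, 30.7, 30.7 and 29.7 CPM (log2 fold change -0.57 ± 0.12 (SE), edgeR adjusted p = 0.00901). Glrx was lost after thinning (adjusted p = 0.145). The others were 4 peroxiredoxins, which reduce peroxides, and glutathione reductase (Gsr).

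Interferon response genes fell in 7 of 44 cases and none rose (median -0.16), but the count was 1 without untreated library 3, 2 without untreated library 5, NR library 2 or NR library 3 and 3 without NR library 1, and none was called without the shallowest and the deepest untreated library. Ifitm1, a membrane protein that restricts viral entry, measured 1485, 1968, 1588, 1219 and 1729 CPM in untreated aged HSC and 939, 1036, 623, 989 and 888 CPM in NR-treated aged HSC. Its groups were apart (log2 fold change -0.83 ± 0.17 (SE), edgeR adjusted p = 0.00779). Ifitm3 went from 2106 to 2617 CPM without NR to 1218 to 1993 CPM with it (log2 fold change -0.48 ± 0.13 (SE), edgeR adjusted p = 0.0287). Ifitm3 was lost without untreated library 3 (adjusted p = 0.0773), untreated library 5 (0.0759), NR library 2 (0.0543) or NR library 3 (0.0788). Antigen presentation went the other way, with 6 of 30 genes higher and none lower (median 0.22), beside 3.88% of all genes that rose. The 6 were Tap1, Tap2, H2-Eb1 and the related H2-Q4, H2-Q6 and H2-Q7. Reads of the H2-Q genes may be split between them. Tap2, a subunit of the peptide transporter that loads MHC class I, rose from 44.2, 37.6, 36.9, 44.4 and 40.2 CPM to 82.2, 69.2, 81.3, 78.5 and 58 CPM (log2 fold change 0.85 ± 0.12 (SE), edgeR adjusted p = 0.000778). Its partner Tap1 rose from 96.9 to 119 CPM without NR to 132 to 194 CPM with it (log2 fold change 0.56 ± 0.11 (SE), edgeR adjusted p = 0.00808). The count for antigen presentation was 2 without untreated library 3, NR library 3 or NR library 4 and 3 without untreated library 5, and 4 without the shallowest and the deepest untreated library.

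**Figure D4:**
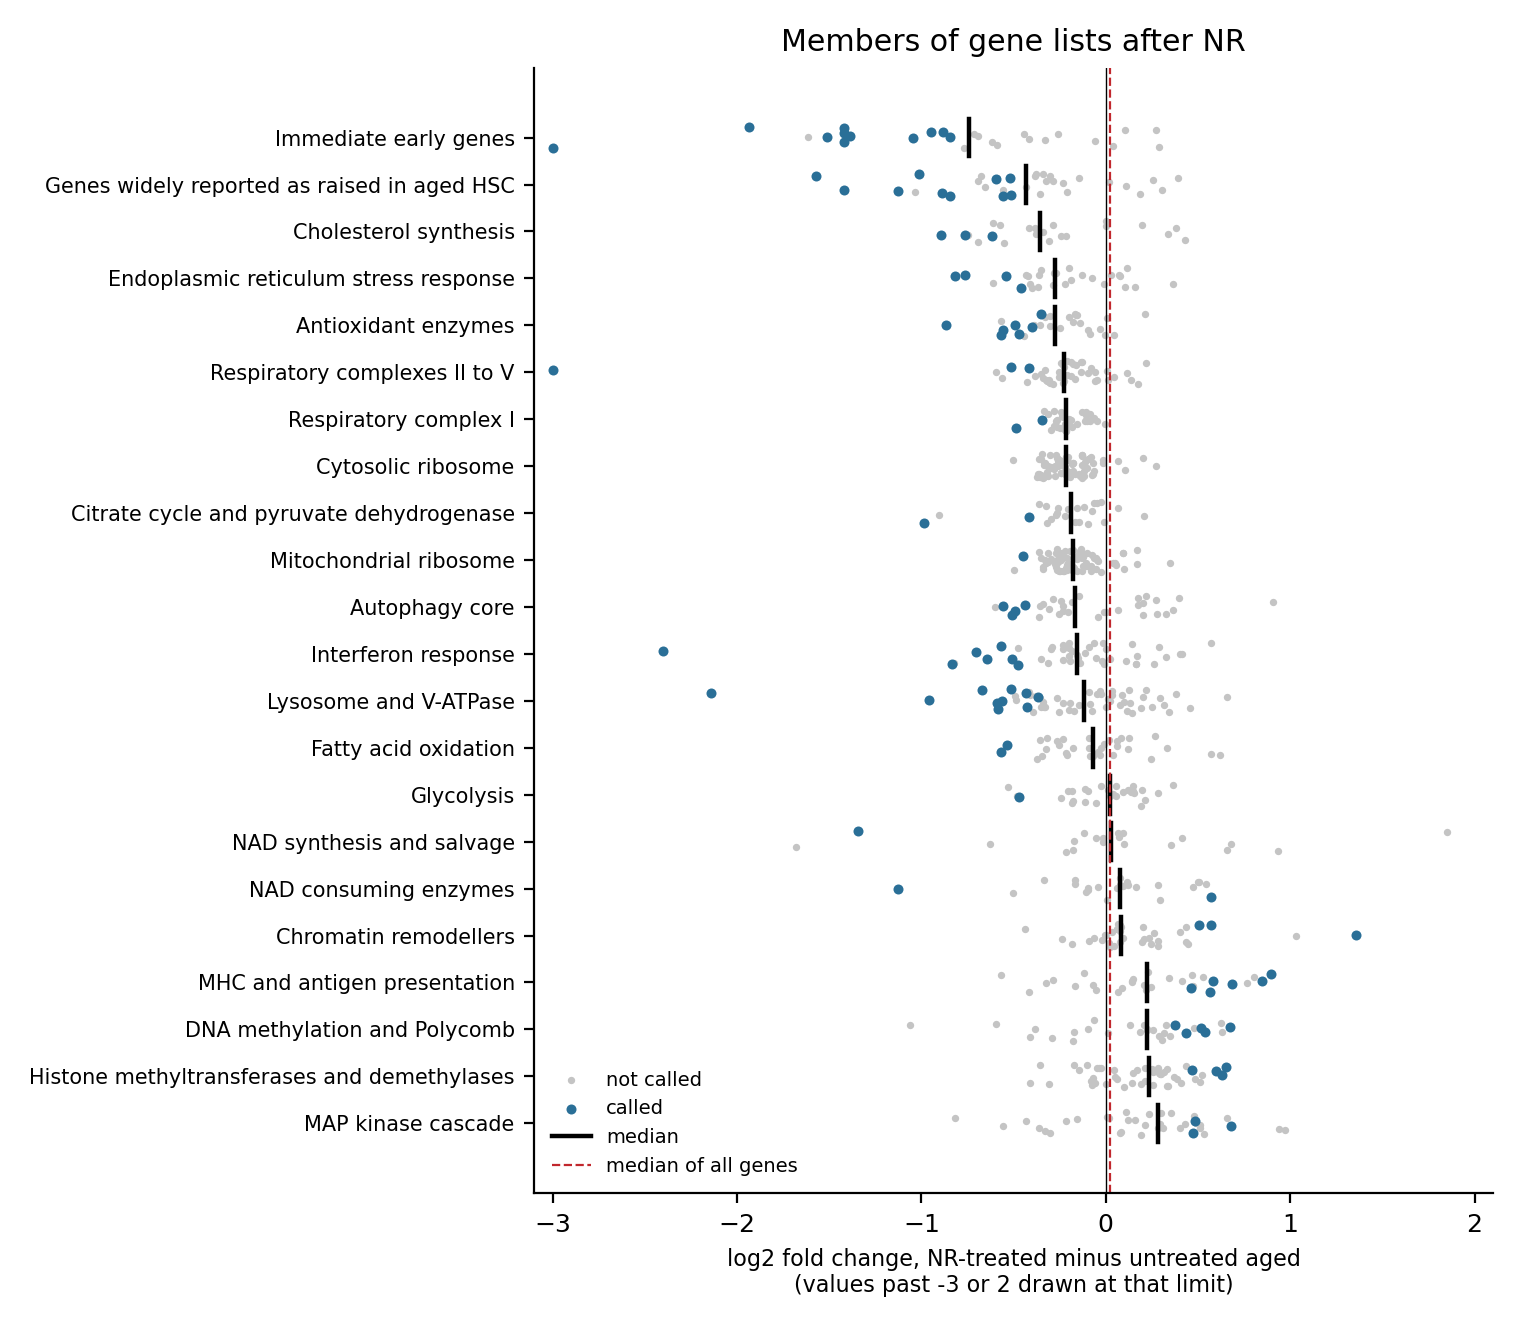
Log2 fold change after NR of each measured member of 22 gene lists, with called genes in blue, black bars at the list median and the median of all genes, 0.02, as a dashed line. Immediate early genes lie furthest to the left with a median of -0.74, and the MAP kinase cascade furthest to the right with 0.28.

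Genes known for a rise in aged HSC fell in 10 of 33 cases, none rose and the median was -0.43. The count was 3 without untreated library 3 and 4 without untreated library 5, NR library 3 or NR library 4, and 1 without the shallowest and the deepest untreated library. Clu (clusterin, chr14:65968483-65981547, plus strand), a secreted chaperone, measured 283, 328, 313, 304 and 326 CPM in untreated aged HSC and 195, 154, 56, 139.5 and 222 CPM in NR-treated aged HSC. Every treated value was lower than every untreated one (log2 fold change -1.01 ± 0.22 (SE), edgeR adjusted p = 0.0111), and the young range was 26.9 to 36.8 CPM, below all treated libraries. Tm4sf1, a tetraspanin-like surface protein, fell from 40.2 to 72.1 CPM without NR to 22.3 to 40.8 CPM with it (log2 fold change -0.89 ± 0.20 (SE), edgeR adjusted p = 0.0132), with a young range of 1.45 to 6.03 CPM. Other well-known genes of the class did not pass the test. Nupr1, a stress-induced nuclear protein, lay at 536 to 801 and 475 to 603 CPM (log2 fold change -0.29 ± 0.15 (SE), edgeR adjusted p = 0.247) and at 31.2 to 71.1 CPM in young HSC. Selp (P-selectin) lay at 110.4 to 158 and 107 to 158 CPM (log2 fold change -0.15 ± 0.14 (SE), edgeR adjusted p = 0.537). Vwf (von Willebrand factor) lay at 141 to 196 and 83.6 to 177 CPM (log2 fold change -0.21 ± 0.16 (SE), edgeR adjusted p = 0.435).

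Of 23 core HSC transcription factors 1 fell and 2 rose (median 0.14), beside 8.07% of all genes called in either direction. The count was 1 without untreated library 2, untreated library 4, untreated library 5, NR library 3 or NR library 4 and 5 without NR library 1. Of 18 surface and sorting markers of HSC 2 fell, Cd48 and Slamf1, and 2 rose. Mycn, a driver of growth in HSC, measured 486, 444, 534, 447 and 531 CPM in untreated aged HSC and 276, 347, 226, 308 and 346 CPM in NR-treated aged HSC. The groups did not overlap (log2 fold change -0.70 ± 0.12 (SE), edgeR adjusted p = 0.0037), and young HSC held 193 to 251 CPM. Cdkn1c (p57), the inhibitor that holds HSC in quiescence, fell from 121, 136, 122, 109 and 140.4 CPM to 86.4, 83.8, 36.2, 88.8 and 76 CPM, with NR library 3 the lowest (log2 fold change -0.75 ± 0.17 (SE), edgeR adjusted p = 0.0152). No gene of 30 in mitosis was called by edgeR (0 higher and 2 lower at an unadjusted p under 0.05, and 1 lower each by DESeq2 and limma-voom), and of 49 genes of DNA replication 2 rose and 1 fell. The count for replication was 1 without untreated library 2, untreated library 3, untreated library 4 or NR library 4 and 5 without NR library 2. Itga2b (CD41), an integrin of megakaryocytes and of a subset of HSC, rose from 86.8, 90.8, 70, 117 and 85.6 CPM to 233, 129, 195, 195 and 189 CPM, apart in all libraries (log2 fold change 1.07 ± 0.16 (SE), edgeR adjusted p = 0.00106). Its young range was 100.1 to 142.7 CPM, which all treated libraries but NR library 2 exceeded. Cd27, a receptor of the TNF family found on HSC, rose from 66.5 to 88.7 CPM without NR to 106 to 126 CPM with it (log2 fold change 0.56 ± 0.12 (SE), edgeR adjusted p = 0.0119). Gp5, a platelet glycoprotein, went from 14.1 to 25.9 CPM without NR to 13.7 to 51.4 CPM with it and overlapped (log2 fold change 0.85 ± 0.25 (SE), edgeR adjusted p = 0.0404). Gp5 was lost without untreated library 1 (adjusted p = 0.0613), untreated library 3 (0.118), untreated library 4 (0.0597), untreated library 5 (0.0642), NR library 1 (0.0868), NR library 3 (0.0836), NR library 4 (0.101) or NR library 5 (0.0539).

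Signalling genes changed singly. Pik3r1, the regulatory subunit of PI3 kinase, measured 383, 349, 492, 437 and 481 CPM in untreated aged HSC and 241, 322, 218, 242 and 239 CPM in NR-treated aged HSC, and did not overlap (log2 fold change -0.77 ± 0.12 (SE), edgeR adjusted p = 0.00222). Among 30 genes of PI3K, mTOR, Foxo and Foxk it was 1 of 4 that fell, and 1 rose. The count was 1 without untreated library 3, untreated library 5 or NR library 4, 2 without untreated library 4 and 3 without untreated library 2, NR library 2 or NR library 3. Foxk1, a forkhead factor that represses autophagy genes, fell from 45.8 to 73.6 CPM without NR to 28.4 to 48.2 CPM with it (log2 fold change -0.54 ± 0.15 (SE), edgeR adjusted p = 0.0325). Foxk1 was lost without untreated library 3 (adjusted p = 0.073), untreated library 4 (0.0942), untreated library 5 (0.0689), NR library 1 (0.055), NR library 2 (0.0534), NR library 3 (0.0875) or NR library 4 (0.0665). Plk2, a stress-responsive kinase, fell from 171, 123, 274, 143 and 186 CPM to 77.1, 117, 66.5, 81.5 and 75.7 CPM (log2 fold change -1.12 ± 0.20 (SE), edgeR adjusted p = 0.00467), with 3 other genes of the p53 pathway, which called 5 of 22 in all and 3 without untreated library 1, untreated library 2, untreated library 3, untreated library 5, NR library 1, NR library 2, NR library 3 or NR library 4. In the TGF-beta and BMP pathway Id1, a target of BMP signals, fell from 4.98 to 8.28 CPM without NR to 1.19 to 3.29 CPM with it (log2 fold change -1.84 ± 0.38 (SE), edgeR adjusted p = 0.00906). Id1 was lost after thinning (adjusted p = 0.24) and without the shallowest and the deepest untreated library (0.0566). Tgfb1 rose from 6.49 to 10.4 CPM without NR to 11.6 to 24.9 CPM with it (log2 fold change 1.01 ± 0.26 (SE), edgeR adjusted p = 0.0249). Tgfb1 was lost without untreated library 3 (adjusted p = 0.0796), NR library 3 (0.0771) or NR library 4 (0.0573). The abundant genes of smallest p that fell included Klhl24, an adaptor of ubiquitin ligases, from 366, 411, 529, 453 and 417 CPM to 177, 254, 240.3, 218 and 215 CPM (log2 fold change -0.98 ± 0.12 (SE), edgeR adjusted p = 0.000159). Gtf2a1, a subunit of the general factor TFIIA, fell from 184 to 368 CPM without NR to 94.2 to 132 CPM with it (log2 fold change -1.21 ± 0.17 (SE), edgeR adjusted p = 0.00102).

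Among named genes that averaged 5 CPM or more and did not overlap, the largest rise was that of Atp13a2 (chr4:140986873-141007330, plus strand), a lysosomal P-type ATPase that exports polyamines. It measured 39.6, 33.7, 35.8, 37 and 35.3 CPM in untreated aged HSC and 171, 138, 70, 131 and 109.7 CPM in NR-treated aged HSC. The untreated values were tightly grouped and every treated one was higher, at 36.3 ± 2.19 and 124 ± 37.5 CPM (mean ± SD, n = 5 each) (log2 fold change 1.77 ± 0.17 (SE), edgeR adjusted p = 3.41e-05). Young HSC held 58.5 to 81.7 CPM, a range in which NR library 3 lay and which the other treated libraries exceeded. Slc22a3, a transporter of organic cations, rose from 37.9, 36.3, 31.6, 50.3 and 35.3 CPM to 122, 57.5, 140.4, 98.3 and 71.6 CPM (log2 fold change 1.35 ± 0.20 (SE), edgeR adjusted p = 0.00123) and overlapped the young range of 94 to 148 CPM. Others of the largest folds were low: Ttll3, an enzyme that adds glycine to tubulin, at 1.07 to 4.19 and 7.08 to 9.33 CPM (log2 fold change 1.67 ± 0.32 (SE), edgeR adjusted p = 0.0068). Fxyd4, a regulator of the sodium pump, lay at 8.28 to 15.5 and 24.9 to 36.4 CPM (log2 fold change 1.36 ± 0.20 (SE), edgeR adjusted p = 0.00102). Its young range of 13.3 to 21.8 CPM was below all treated libraries. Arl5c, a small GTPase of the ARF-like family, rose from 80.8, 79.1, 62.6, 61.5 and 65.1 CPM to 213, 103, 105, 150.1 and 228 CPM (log2 fold change 1.21 ± 0.22 (SE), edgeR adjusted p = 0.00506). Iqgap2, a scaffold of the cytoskeleton, rose from 132 to 186 CPM without NR to 234 to 323 CPM with it (log2 fold change 0.67 ± 0.11 (SE), edgeR adjusted p = 0.0025).

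Chromatin genes were counted in 4 classes, beside 3.88% of all genes that rose. In these, 4 of 48 histone methyltransferases and demethylases rose (median 0.23), 5 of 29 genes of DNA methylation and Polycomb (0.22), 3 of 35 remodellers (0.08) and 3 of 32 of histone acetylation and bromodomain proteins (0.09). Of DNA damage response and repair 1 of 43 rose (0.19), under the share of all genes, and the count was 0 without untreated library 3, 2 without untreated library 4, 3 without untreated library 1 and 4 without NR library 1. No member of the 5 lists fell. Under library totals these medians were 0.37, 0.36, 0.21, 0.23 and 0.33, against 0.16 over all genes. Trim28 (KAP1), the corepressor that silences repeats through zinc finger proteins, rose from 88, 70.1, 82.6, 96.9 and 93 CPM to 166, 150.0, 158, 160.0 and 128 CPM, with all treated values above all untreated ones (log2 fold change 0.81 ± 0.11 (SE), edgeR adjusted p = 0.000699). Asxl2, a Polycomb-associated protein, rose from 44.1 to 78.2 CPM without NR to 86.2 to 119.8 CPM with it (log2 fold change 0.67 ± 0.13 (SE), edgeR adjusted p = 0.00773). The deacetylase Hdac7 rose from 28.5 to 40.2 CPM without NR to 46 to 52.9 CPM with it (log2 fold change 0.57 ± 0.13 (SE), edgeR adjusted p = 0.0117). Asxl2 (adjusted p = 0.112) and Hdac7 (0.105) were lost after thinning.

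Several chromatin calls were lost when a library was left out, with folds of the same sign. Without untreated library 3 the log2 fold change was 1.20 for Srcap, 0.49 for Bptf, 0.60 for Kmt2b and 0.46 for Dnmt3b. Srcap, the ATPase that deposits H2A.Z, rose from 2.79 to 6.5 CPM without NR to 7.34 to 16.4 CPM with it (log2 fold change 1.36 ± 0.31 (SE), edgeR adjusted p = 0.0132). Srcap was lost without untreated library 3 (adjusted p = 0.0513). Bptf, a reader of methylated histone H3, rose from 144 to 191 CPM without NR to 203 to 260.3 CPM with it (log2 fold change 0.51 ± 0.12 (SE), edgeR adjusted p = 0.0176). Bptf was lost without untreated library 3 (adjusted p = 0.0517). Kmt2b (0.63, edgeR adjusted p = 0.0199) was lost without untreated library 3 (adjusted p = 0.0617), untreated library 5 (0.0588) or NR library 4 (0.0565). The de novo methyltransferase Dnmt3b (0.52, edgeR adjusted p = 0.0298) was lost without untreated library 1 (adjusted p = 0.0512), untreated library 3 (0.0857), NR library 4 (0.0798) or NR library 5 (0.0579). Histone methyltransferases and demethylases called 0 without untreated library 3, untreated library 5 or NR library 4 and 1 without NR library 3. DNA methylation and Polycomb called 1 without untreated library 3, 2 without untreated library 2, untreated library 4, untreated library 5, NR library 3, NR library 4 or NR library 5 and 3 without NR library 2. Remodellers called 0 without untreated library 3 and 5 without NR library 1, and acetylation and bromodomain proteins 1 without untreated library 1, untreated library 2, untreated library 3, untreated library 4, untreated library 5, NR library 3 or NR library 4.

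Long noncoding RNAs rose in part at high levels. Kcnq1ot1, the antisense RNA that silences an imprinted domain, measured 379, 150.5, 133, 254 and 198 CPM without NR and 381, 555, 621, 690.4 and 474 CPM with it (log2 fold change 1.28 ± 0.24 (SE), edgeR adjusted p = 0.00564). Xist, which coats the inactive X chromosome in females, rose from 429, 293, 412, 418 and 416 CPM to 512, 786, 853, 831 and 721 CPM, with no overlap (log2 fold change 0.90 ± 0.19 (SE), edgeR adjusted p = 0.00911). Xist was lost without the shallowest and the deepest untreated library (adjusted p = 0.0681).

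The classes of gene that rose and fell differed in the annotation (GENCODE M21), given as counts with no test. Of 699 genes typed TEC, loci that await experimental proof, 151 rose (21.6%), and of 83 sense intronic transcripts 16 did (19.3%), against 321 of 12288 protein-coding genes (2.61%). Antisense RNAs rose in 45 of 411 cases (10.9%) and lincRNAs in 20 of 375 (5.33%). Of the predicted genes that could be placed, 146 of the 255 that rose (57.3%) lay within a protein-coding gene on the same strand, against 782 of all 3075 (25.4%). The share of counts on predicted genes was 5.24% ± 0.198 in untreated and 6.05% ± 0.286 in NR-treated HSC (SD, n = 5 each), and the exact permutation test gave p = 0.00794, its smallest possible value. Most of these transcripts were sparse, with a median of 90 counts over the 5 NR libraries for genes that rose by 1 to 3 log2 units.

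Among genes that are not predicted, those with short transcripts fell and those with long ones rose more often. By quintiles of the longest annotated transcript, 0.66% of the shortest and 4.21% of the longest rose, while 9.08% and 3.42% fell. The median log2 fold change of a quintile went from -0.18 to 0.09 with length. By quintiles of transcript GC content, 1.86% rose in the lowest and 4.17% in the highest, while 8.42% and 2.39% fell. Falls were commonest among abundant genes, at 11.2% of the top quintile by level and 3.09% of the bottom quintile.

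**Figure D5:**
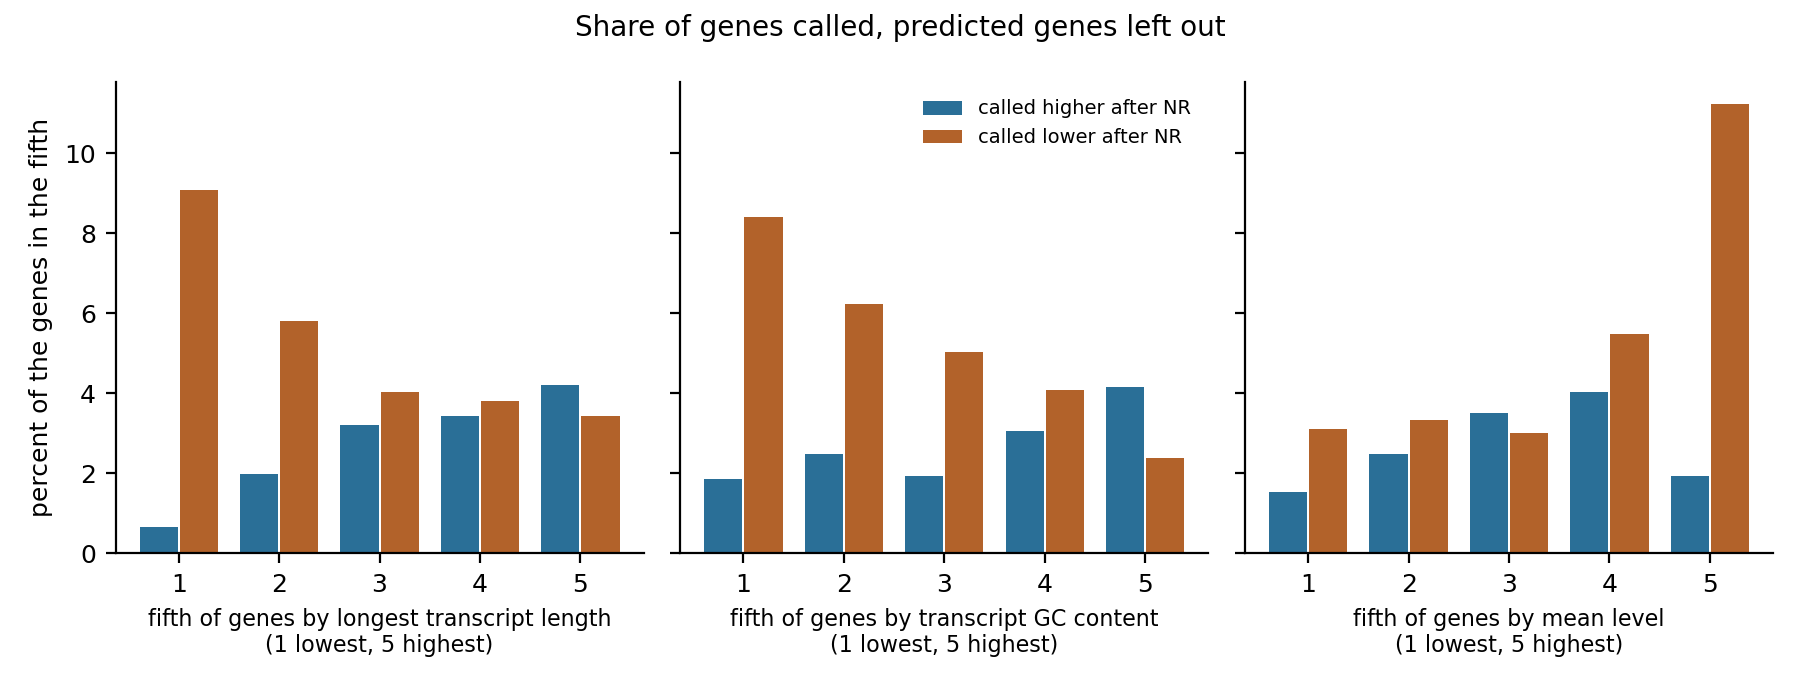
Percent of genes called higher (blue) and lower (brown) after NR in each quintile of genes by longest transcript length, transcript GC content and mean level, predicted genes left out. The share that fell is 9.08% for the shortest and 3.42% for the longest transcripts, and 3.09% for the lowest and 11.2% for the highest levels.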

How the data were processed

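RNA of 15 sorted HSC samples was sequenced as 3′-biased libraries with 10 bp unique molecular identifiers (UMI). Reads were aligned by the authors with STAR 2.4.2a to GRCm38, UMI duplicates were marked with Je, and featureCounts assigned reads to GENCODE M15 genes. The deposited values are whole-number counts per gene, and the authors dropped genes unless 2 or more samples held over 5 reads and over 2 CPM, which left 16154. How the depth of untreated library 3 arose is not given in the sources used here.

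Counts were tested as deposited with edgeR 4.0.16 in R 4.3.3 (quasi-likelihood, TMM scaling, all 15 libraries in 1 fit, NR-treated minus untreated aged, Benjamini-Hochberg over all genes, threshold 0.05). EdgeR p-values rest on the spread between the 5 mice within each group, estimated over all 15 libraries and moderated across genes. The SE printed with a log2 fold change is its absolute value divided by the square root of the F statistic of this test. Single values per library were compared by exact permutation tests over 252 arrangements, two-sided. On simulated data for this comparison and all 16154 genes, the test recovered 101 of 200 genes changed 2-fold (50.5%), with 1.94% of calls false. Apart from the 200, each simulated gene had the same mean in all groups and was drawn independently of other genes. These shares therefore do not cover shifts of whole libraries, scaling or differences in cell mixture. Bounds for genes at 0 use 3 counts over the group and cover counting error only.

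The members and gene lists were chosen with earlier results of these data known. Named genes were the 12 largest changes in each direction (called, mean of at least 5 CPM, no overlap, not predicted), the 6 of smallest p in each direction with a mean of at least 50 CPM, up to 4 called members of each of 59 lists and genes named in the study. HSC markers, Klf2, Klf6, Ier2, Fos, Atf3, Junb, Fosb, Egr1, Nr4a1, Hspa1b, Sirt1, Nmrk1, Nampt, Parp1, Nupr1, Selp, Vwf, Xist and Gm42826 lie outside that rule and were chosen for their role or after their values were seen. Gene positions and types are those of GENCODE M21 on GRCm38, matched by symbol for 15580 genes (96.4%). Promoters came from RefSeq. A few genes within the rule are not reported here.

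Alternatives were DESeq2 1.42.0 and its size factors, limma 3.58.1 (voom), a likelihood ratio test, library totals, at least 10 counts in every library, thinning to the smallest total, only the 10 aged libraries, a replicate block, leaving out predicted genes and leaving out each library. Leaving out the shallowest and the deepest untreated library was added after the totals were seen. Other steps ran in Python 3.11.15 with pandas 2.3.3, SciPy 1.17.1 and NumPy 2.4.6.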

Additional observations from a re-analysis of the deposited data

Results flagged for a closer look

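In 29 of the groups of 5 values examined, 1 library lay farther from the other 4 than Dixon's 95% limit allows. For independent groups of normal values about 1 in 20 would be flagged, which here would be 12.4 groups. The groups are not independent, since several are related transcripts or marker shares of the same libraries, so that number is only a rough guide. For 7 transcripts of erythroid, myeloid and plasma cells NR library 5 lay above the other 4 treated libraries beyond that limit. Hbb-bs was 288 CPM there, Hba-a1 76.5 CPM, Hbb-bt 120 CPM, Igha 1.63 CPM, Elane 21.2 CPM, Ctsg 14.4 CPM and Ly6c2 54.2 CPM. The share of counts on markers was 0.0571% for erythrocytes, 0.0128% for granulocytes and 0.00423% for mast cells and basophils in that library. Gtf2a1 was also highest there, at 132 CPM.

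Untreated library 3, the deepest, lay above the rest of its group beyond that limit for 5 genes of the stress response and the lysosome. Jun was 2937 CPM, Atf3 286 CPM, Junb 1235 CPM, Ppp1r15a 627 CPM and Ctsb 375 CPM. NR library 2 stood above the other treated libraries for Ier2 at 234 CPM, Atf3 at 5.96 CPM, Egr1 at 1160 CPM and Pik3r1 at 322 CPM.

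NR library 3 was far from its group with Atp8b5 high at 20.6 CPM, and with Ctsb at 156 CPM and Cdkn1c at 36.2 CPM, both low. In NR library 4 Ly6a was high at 345 CPM. Untreated library 2, the shallowest, was low for Sirt1 at 7.78 CPM, Xist at 293 CPM and the number of genes detected, 14726. Id1 was low in untreated library 4 at 4.98 CPM, and the 10 largest genes took the smallest share of counts in NR library 1, 5.74%.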

How the results depend on the processing

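Depth was uneven in the untreated group and single libraries moved the counts. The 1303 calls (627 higher, 676 lower) became 801 with at least 10 counts in every library (330 lower, of 8561 genes tested), 445 after thinning all libraries to the smallest total (197 higher, 248 lower) and 227 without the shallowest and the deepest untreated library (73 higher, 154 lower), a choice made after the totals were seen. Scaling by library totals called 1246 higher and 344 lower. DESeq2 called 1804, the likelihood ratio test 1734, limma-voom 1757, DESeq2 size factors 1320 and the fit without predicted genes 1002. Leaving out 1 library gave 422 to 1497 calls, 174 to 809 higher and 248 to 688 lower. Same-numbered libraries had correlations of -0.25 to 0.11 between their deviations, over 0.1 in 1 of 5 pairs, so no pairing was seen. What the numbers stand for is not given in the sources used here. A fit with the replicate block called 1048 (975 of them among the 1303). Of 94 named genes that were called, 66 were called in every fit without 1 library and 42 in every alternative that tested them (all 21 for 35 of these), and the direction of none turned. Limma-voom did not call Iglc1, Hdac6, Gp5, Atf3 or Gm42826, and DESeq2 did not call Junb. Among library measures, leaving out 1 library moved the difference (NR-treated minus untreated) in library measures: total count from -4894802 (without untreated library 2, exact permutation p = 0.00794) to -1756085, in library measures: genes detected from -94.55 (without untreated library 2) to 254.95, with 447.2 after thinning (exact permutation p = 0.0159), and in library measures: percent of counts on the 10 largest genes from 0.165 to 0.334 (without NR library 1, exact permutation p = 0.0238). The cause was not tested.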

Other observations

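Gm42826, a locus typed TEC at chr3:125216915-125219553 on the minus strand (GRCm38), measured 0.434, 1.3, 0.254, 0 and 0.603 CPM in untreated aged HSC, 0 to 1.08 CPM in young HSC and 0.282, 347, 0.778, 0.731 and 302 CPM in NR-treated aged HSC (log2 fold change 8.48 ± 1.59 (SE), edgeR adjusted p = 0.0059). The call was lost in limma-voom (adjusted p = 0.248). The groups overlapped, and 2 of the 5 treated libraries held nearly all of its counts.

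Among the autosomes and X (the Y chromosome had 5 tested genes, none called), the share of tested genes called higher ran from 1.64% of 549 on chromosome 13 to 6.06% of 1123 on chromosome 5, and 6.00% of 1083 on chromosome 1. The share called lower ran from 2.76% on chromosome 5 to 6.57% of 487 on chromosome 12.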
